A study of Mus musculus with 3 samples.

Results

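Female primordial germ cells of the mouse at embryonic day 14.5 (E14.5) were divided by 3 sets of 6 genes, and the cells highest in the set of Msx1, Rec8, Ccnd1, Synpr, Sp5 and Matk are described here as the Rec8-Msx1 class. Each of the 18 genes was z-scored over the E14.5 cells, the z values were averaged per set, and a cell was put in the class of its highest average. The Rec8-Msx1 class held 3050 of the 9075 E14.5 cells (33.6%) and of the 19144 cells of the series. The Cdh15-Dlx3 class (Cdh15, Tbata, Dync1i1, Dlx3, Tacc2 and Batf3) held 2425 cells and the Tppp-Fgf11 class (Tppp, Fgf11, Lypd4, Madd, Syt14 and Mtl5) held 3600 cells. The cells were chosen by the levels of these 18 genes, which are given below as a description and support no result. The classes were cut on the same cells whose other genes are compared, so differences between them are in part built in by the choice.

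The cells were sorted for Oct4-EGFP, a green fluorescent reporter of Pou5f1 (Oct4), from fetal ovaries of C57BL/6 mice at E14.5, with further libraries at E12.5 and E16.5. Each stage was 1 droplet library made with the 10x Genomics version 2 kit for 3' ends, in which unique molecular identifiers (UMIs) count RNA molecules. The reporter was carried by all 3 libraries, the number of animals pooled is not given in the labels, and every class at E14.5 came from the same library. Cells are not replicates, so no test was made between classes or stages, and every 95% interval covers counting error only. The Rec8-Msx1 class held 36810231 UMIs (median 11682.5 per cell), the Cdh15-Dlx3 class 31796313 (median 12662) and the Tppp-Fgf11 class 35607581 (median 9530). The other libraries had medians of 26691.5 UMIs per cell at E12.5 and 12659 at E16.5.

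In the fetal ovary, primordial germ cells leave the mitotic cycle, shut down genes of pluripotency and enter meiosis. Retinoic acid and bone morphogenetic protein (BMP) signals act at this step, and STRA8 together with its partner MEIOSIN switches on the meiotic genes. Germ cells then pass through a last round of DNA replication in which the meiotic cohesin REC8 is loaded, before chromosome axes, double-strand breaks and synapsis follow. Msx1, a homeobox gene that answers BMP, and Ccnd1, which encodes cyclin D1, are known from germ cells around this transition.

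The genes that chose the class were low at both other stages. Rec8 (chromosome 14, 55618037 to 55625395, GRCm38) stood at 315.0 counts per 1000000 UMIs (CPM) in the Rec8-Msx1 class, against 182.6 in the Cdh15-Dlx3 class, 96.1 in the Tppp-Fgf11 class, 8.75 at E12.5 and 18.05 at E16.5. Msx1 (chromosome 5, 37820485 to 37824583) stood at 181.0 CPM in the class, against 96.5 and 36.1 CPM in the other 2 classes, 10.9 at E12.5 and 14.7 at E16.5. Ccnd1 stood at 168.6 CPM in the class, against 85.7 and 39.3 CPM in the other 2 classes, 6.74 at E12.5 and 11.6 at E16.5. All 3 were therefore present in the other E14.5 classes too, at lower levels, and far lower at the other stages. When each cell was thinned to 5000 UMIs and the E14.5 means and spreads were used for all libraries, the Rec8-Msx1 set was the highest in 34.2% of E14.5 cells, 5.29% of E12.5 cells and 3.93% of E16.5 cells. In thinned cells, Sp5 was found in 1.253% of Tppp-Fgf11, 1.254% of E12.5 and 1.255% of E16.5 cells. Synpr was found in 0.362%, 0.0637% and 0.337% of the same groups, and Matk in 2.17%, 0.149% and 0.674%. Sp5 was thus no lower at the other stages than in Tppp-Fgf11.

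Because the class was cut from a score, it is described as a range along that score and not as a type. In 377 of its cells (12.4%) the Rec8-Msx1 average exceeded the next set by less than 0.1, in 941 (30.9%) by less than 0.25, and in 344 no set was above 0. Just inside the cut, the 377 cells had 248.9 CPM of Rec8, 130.0 of Msx1, 122.1 of Ccnd1, 23.6 of Sp5, 9.48 of Matk and 3.31 of Synpr. The 381 cells just outside it, with Rec8-Msx1 as their second set, had 218.3 CPM of Rec8, 128.2 of Msx1, 113.9 of Ccnd1, 20.7 of Sp5, 7.77 of Matk and 3.67 of Synpr. After thinning, 2267 of 3049 members (74.4%) kept their class, 483 went to Cdh15-Dlx3 and 299 to Tppp-Fgf11.

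**Figure D1:**
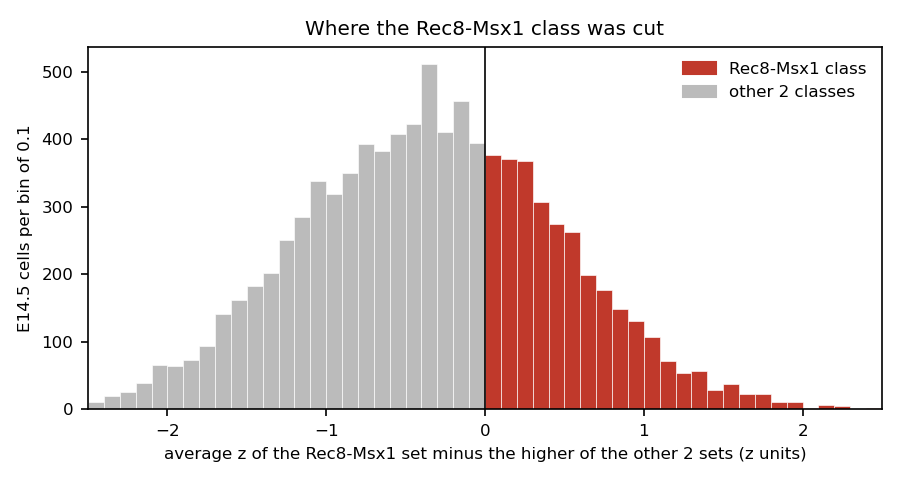
Number of E14.5 cells (y axis) by the average z of the Rec8-Msx1 set minus the higher of the other 2 sets (x axis, z units, shown from -2.5). Red bars are the 3050 cells of the Rec8-Msx1 class, gray bars the other 2 classes, and no gap separates them at the cut at 0.

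Germ cell identity was checked with marker lists. Of 20 germ cell markers, 18 were found in at least 10% of the cells of the class, against 2 of the 22 markers measured for pregranulosa cells, the supporting cells of the ovary. The germ cell count was 19 in Cdh15-Dlx3, 13 in Tppp-Fgf11 and 15 in the 165 E14.5 cells with at least 5 pregranulosa markers. This count alone therefore separates germ cells poorly. Summed germ cell markers stood at 6886 CPM in the class and 1926 in those 165 cells, where 20 of the 22 pregranulosa markers reached that share. The class nevertheless held 83 cells (2.72%) with at least 5 pregranulosa markers, against 72 (2.97%) in the Cdh15-Dlx3 class and 10 (0.278%) in the Tppp-Fgf11 class. Summed pregranulosa markers stood at 216.2 CPM in the class, 215.4 in Cdh15-Dlx3 and 64.2 in Tppp-Fgf11, and at 90.5 CPM in the class without those cells. Sp5, one of the 6 genes of the rule, was found in 41.3% of the class and in 50.9% of the 165 cells with pregranulosa markers (median 8702 UMIs), and at 5000 UMIs per cell in 21.5% and 30.9%. The endothelial list had 3 of its 7 measured markers in at least 10% of the class, Plvap, Egfl7 and Pecam1, at 17.5, 12.8 and 13.3 CPM. Only 4 of 11 blood and immune, 4 of 9 erythroid and 2 of 11 interstitial markers were among the deposited genes. None of these reached that share or 10 CPM, and so few markers check such cells poorly. Of the class's barcodes 15 also occurred in the E12.5 library and 25 in the E16.5 library.

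The working name of the class calls it early. By genes that differ between E12.5 and E16.5, it lay on the E12.5 side of Tppp-Fgf11 and on the E16.5 side of Cdh15-Dlx3. Of 5975 genes of at least 20 CPM in a class, the Rec8-Msx1 level lay between the other 2 classes for 4200 (70.3%), was the highest for 1219 and the lowest for 556. The rule did not use the E12.5 and E16.5 libraries, but its sets themselves differ between them. After thinning, scored with the E14.5 means and spreads, the Cdh15-Dlx3 set was the highest in 91.3% of E12.5 and 36.2% of E16.5 cells. The Tppp-Fgf11 set was the highest in 3.42% and 59.9%. The direction of the order along these stages is thus in part built in by the sets, and how much was not tested. Among 1479 genes at least 2-fold higher at E12.5 than at E16.5, 1133 (76.6%) ran from Cdh15-Dlx3 as the highest through Rec8-Msx1 to Tppp-Fgf11. Among 2296 genes at least 2-fold higher at E16.5, 1764 (76.8%) ran the other way. Genes higher at E12.5 had a median log2 ratio of -0.19 for Rec8-Msx1 over Cdh15-Dlx3 and of 0.88 for Rec8-Msx1 over Tppp-Fgf11. Genes higher at E16.5 had medians of 0.24 and -0.54 for the same ratios, while the median of all genes was 0.06 and 0.03. As each stage was 1 library, a difference of stage and a difference of library cannot be told apart.

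**Figure D2:**
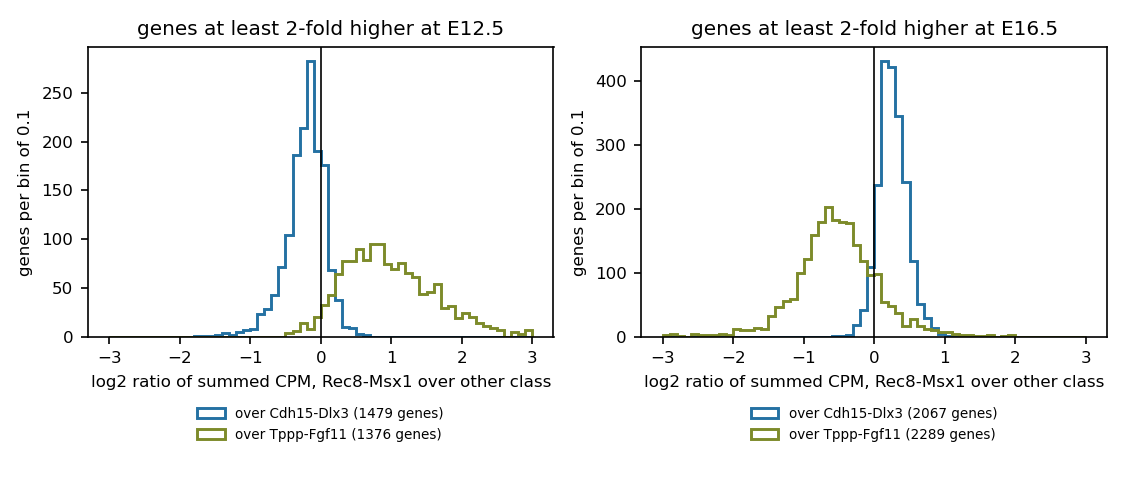
Number of genes (y axis, per bin of 0.1) by log2 ratio of summed CPM of the Rec8-Msx1 class over each other E14.5 class (x axis), for genes at least 2-fold higher at E12.5 than at E16.5 (left) and the reverse (right), with ratios beyond 3 either way drawn at the edge. Over Cdh15-Dlx3 the medians are -0.19 (left) and 0.24 (right), and over Tppp-Fgf11 they are 0.88 and -0.54, so the class lies between the other 2.

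The distance to the 2 neighbouring classes was unequal. Over Cdh15-Dlx3, 2 of 7593 genes of at least 10 CPM were higher by 2-fold or more (0.0263%) and 25 lower (0.329%). The 2 higher genes, named here after their values were seen, were Gripap1 (18.8 against 9.18 CPM) and Xlr5c (26.7 against 13.0 CPM). At 1.5-fold, 143 genes were higher (1.88%) and 152 lower (2.002%). By any amount, 56.0% of genes less than 2-fold apart between E12.5 and E16.5 stood above Cdh15-Dlx3. The share was 20.7% for genes at least 2-fold higher at E12.5 and 91.6% for genes at least 2-fold higher at E16.5. Over Tppp-Fgf11, 933 of 7729 genes were higher by 2-fold or more (12.1%) and 395 lower (5.11%). With median-of-ratios scaling, which moved the median of all genes to -0.18, these counts were 637 and 757, so the excess of higher genes depends on the scaling. The shares over all genes belong beside the counts per gene list below. A list whose count is near them shows no result about its members.

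Of the 17 meiotic entry genes measured, 15 stood above Cdh15-Dlx3 and 13 below Tppp-Fgf11 by any amount. Over all genes at least 2-fold higher at E16.5 than at E12.5, these shares were 91.6% and 84.6%. For genes less than 2-fold apart between those stages they were 56.0% and 45.3%. Stra8 (chromosome 6, 34920163 to 34939344), the transcription factor gene that starts meiosis, stood at 1751 CPM (1737 to 1764) in the Rec8-Msx1 class. It stood at 1086 CPM (1074 to 1097) in Cdh15-Dlx3, 1434 (1422 to 1446) in Tppp-Fgf11, 3.27 at E12.5 and 273.4 at E16.5. The class thus had the highest Stra8 level of the 5 groups, 1.61-fold over Cdh15-Dlx3 and 1.22-fold over Tppp-Fgf11. A Stra8 UMI was found in 98.0% of its cells, 95.6% of Cdh15-Dlx3 cells and 96.9% of Tppp-Fgf11 cells, against 38.2% of the 165 cells with pregranulosa markers, at median depths of 11682.5, 12662, 9530 and 8702 UMIs. At 5000 UMIs per cell the shares were 96.8%, 89.8%, 94.9% and 31.5%. Gm4969, the gene of MEIOSIN, was low in all classes, at 5.70 CPM in Rec8-Msx1, 4.21 in Cdh15-Dlx3 and 7.498 in Tppp-Fgf11. Zglp1, a regulator of the oogenic programme downstream of BMP, stood at 96.0 CPM in the class, 104.0 in Cdh15-Dlx3 and 53.9 in Tppp-Fgf11.

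Of these 17 genes, 5 were at least 1.5-fold higher than in Cdh15-Dlx3 and 0 lower, with a median log2 ratio of 0.43. Over Tppp-Fgf11, 1 of 17 was at least 2-fold higher and 6 lower (median -0.67). The matching shares of all genes were 1.88% higher and 2.002% lower at 1.5-fold over Cdh15-Dlx3. At 2-fold over Tppp-Fgf11 they were 12.1% higher and 5.11% lower. Taf7l, the germ cell paralog of a TFIID subunit gene, stood at 230.2 CPM in Rec8-Msx1, 139.9 in Cdh15-Dlx3 and 636.2 in Tppp-Fgf11. Dmrtc2, a doublesex-related gene of meiotic germ cells, stood at 146.8, 85.3 and 385.9 CPM in the same order. Meioc, whose product sustains the meiotic programme, stood at 95.5, 62.1 and 145.5 CPM. These genes formed a step between the 2 other classes, with the larger distance to Tppp-Fgf11. Dmrt1, a regulator of germ cell entry into meiosis, was the gene of the list that was at least 2-fold higher than in Tppp-Fgf11, at 56.4 against 15.2 CPM, with 59.5 in Cdh15-Dlx3. Dazl, an RNA-binding germ cell gene, differed little, at 1059 CPM in Rec8-Msx1, 1008 in Cdh15-Dlx3 and 1316 in Tppp-Fgf11.

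Genes of chromosome axes and of recombination lay far below the Tppp-Fgf11 class. Of 20 axis, cohesin and synaptonemal complex genes, 7 were at least 2-fold lower than in Tppp-Fgf11 and 0 higher (median -0.85). Of 30 double-strand break and recombination genes, 15 were lower and 0 higher (median -1.01). Of all genes, 5.11% were at least 2-fold lower than in Tppp-Fgf11 and 12.1% higher. Sycp3, of the chromosome axis, stood at 452.8 CPM (445.9 to 459.7) in Rec8-Msx1, 315.4 (309.2 to 321.6) in Cdh15-Dlx3 and 1245 (1234 to 1257) in Tppp-Fgf11. Smc1b, a meiotic cohesin, stood at 1312 CPM in the class, 976.6 in Cdh15-Dlx3 and 2483 in Tppp-Fgf11. Both were 1.34-fold or more above Cdh15-Dlx3, short of the 1.5-fold mark.

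All 27 recombination genes measured against Cdh15-Dlx3 stood above it by some amount. So did 91.6% of all genes at least 2-fold higher at E16.5 than at E12.5. Prdm9 (chromosome 17, 15543079 to 15564354), which marks recombination sites, stood at 27.95 CPM in Rec8-Msx1, 23.8 in Cdh15-Dlx3 and 163.2 in Tppp-Fgf11. Meiob, a single-strand DNA-binding gene of recombination, stood at 14.6, 13.65 and 88.1 CPM, and Rad51ap2 at 9.16, 7.55 and 68.2 CPM in the same order. In Rec8-Msx1 these 3 genes were between 5.84-fold and 7.44-fold lower than in Tppp-Fgf11. The meiotic recombinase gene Dmc1 was nearer, at 92.6 CPM in Rec8-Msx1, 65.9 in Cdh15-Dlx3 and 205.2 in Tppp-Fgf11. Spo11, which makes the breaks, stood at 23.7, 17.7 and 56.0 CPM, against 2.31 at E12.5 and 176.5 at E16.5. Over Cdh15-Dlx3 the axis list had 1 of 19 genes at least 1.5-fold higher and 1 lower (median 0.38, and 0.23 in thinned cells). The recombination list had 6 of 27 higher and 0 lower (median 0.34). At 1.5-fold, 1.88% of all genes were higher than in Cdh15-Dlx3 and 2.002% lower. Rad21, which encodes the mitotic counterpart of the REC8 cohesin subunit, was the axis gene that was lower. It stood at 25.6 CPM in Rec8-Msx1, 53.7 in Cdh15-Dlx3 and 15.6 in Tppp-Fgf11.

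Oocyte differentiation genes were spread around both other classes, and few were measured. Figla, a transcription factor gene of the oocyte programme, stood at 73.8 CPM in Rec8-Msx1, 46.0 in Cdh15-Dlx3 and 229.0 in Tppp-Fgf11. Of 7 oocyte genes measured, 1 was at least 2-fold higher than in Tppp-Fgf11 and 2 lower (median -0.38), against 12.1% and 5.11% of all genes. Over Cdh15-Dlx3, 1 was at least 1.5-fold higher and 1 lower (median 0.13), against 1.88% and 2.002% of all genes. The gene higher than in Tppp-Fgf11 and the gene lower than in Cdh15-Dlx3 were both Dppa3, which is also counted with the pluripotency genes. The piRNA genes, whose products silence transposons, had 1 of 15 members at least 1.5-fold higher than in Cdh15-Dlx3 and 0 lower (median 0.25). Over Tppp-Fgf11, 2 of the 15 were at least 2-fold higher and 1 lower (median 0.05, and -0.16 with median-of-ratios scaling). These counts are near the 12.1% and 5.11% of all genes. Mael, a piRNA factor, stood at 356.2 CPM in the class, 272.8 in Cdh15-Dlx3 and 455.4 in Tppp-Fgf11, and Tex19.1, a transposon repressor, at 247.3, 229.0 and 95.9 CPM.

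**Figure D3:**
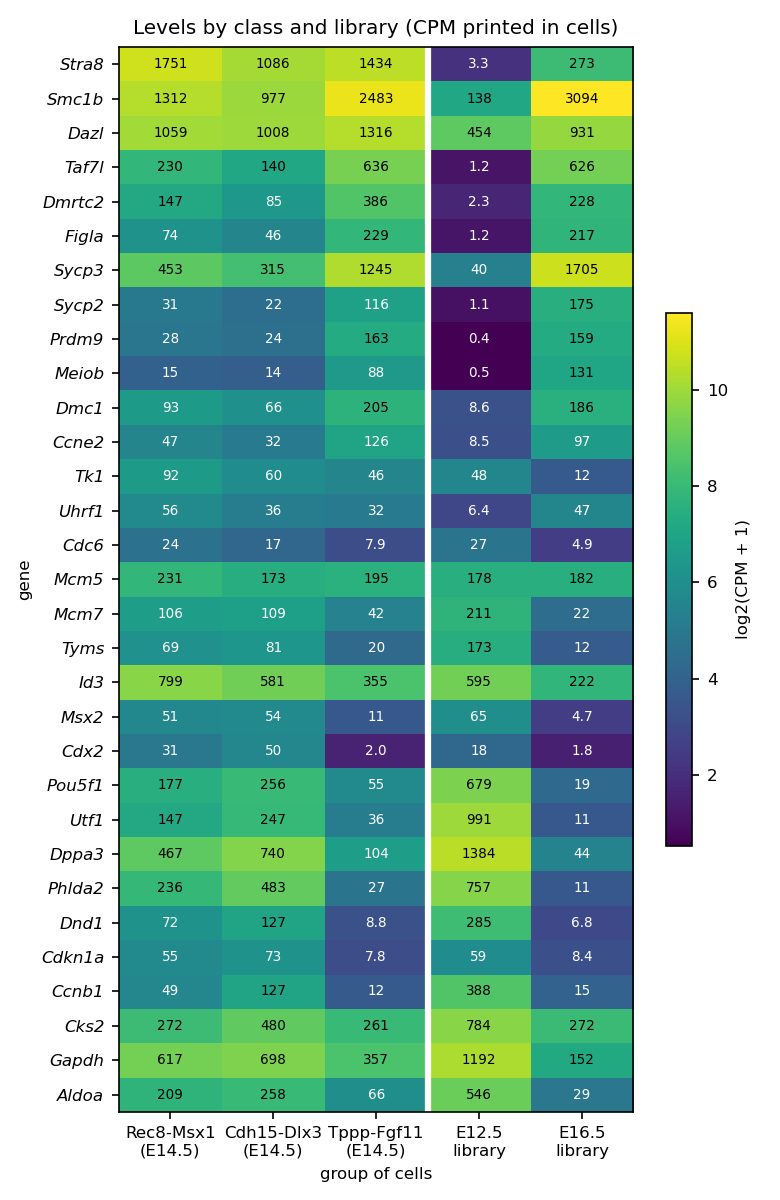
Level of 31 genes (rows) in the 3 E14.5 classes and the E12.5 and E16.5 libraries (columns), colored by log2(CPM + 1), with the CPM printed in each field. Stra8 and Tk1 are highest in the Rec8-Msx1 class, while meiotic genes such as Sycp3 and Prdm9 are highest in Tppp-Fgf11 or at E16.5 and pluripotency genes such as Dppa3 at E12.5.

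Pluripotency and early germ cell genes were lower than in Cdh15-Dlx3 and much higher than in Tppp-Fgf11. Of 21 genes measured, 18 were at least 2-fold higher than in Tppp-Fgf11 and 0 lower (median 1.68). Over Cdh15-Dlx3, 7 were at least 1.5-fold lower and 0 higher (median -0.47). Of all genes, 12.1% were at least 2-fold higher than in Tppp-Fgf11 and 5.11% lower. At 1.5-fold, 2.002% were lower than in Cdh15-Dlx3 and 1.88% higher. Pou5f1, the pluripotency factor behind the sorting reporter, stood at 177.2 CPM (172.9 to 181.6) in Rec8-Msx1, 255.5 (249.98 to 261.1) in Cdh15-Dlx3 and 55.4 (53.0 to 57.9) in Tppp-Fgf11. Dppa3, a maternal-effect gene of early germ cells, stood at 466.7, 740.2 and 104.3 CPM, and Utf1, a chromatin factor of pluripotent cells, at 146.9, 246.8 and 35.9 CPM in the same order. Sox2, a core pluripotency factor, had nearly equal levels in Rec8-Msx1 and Cdh15-Dlx3, at 45.5 and 52.1 CPM, and 7.98 in Tppp-Fgf11.

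Where the higher class reached 50 CPM, the 2 largest ratios over Tppp-Fgf11 belonged to this group. Phlda2, an imprinted growth regulator (chromosome 7, 143501545 to 143503150), stood at 236.3 CPM in Rec8-Msx1 and 26.6 in Tppp-Fgf11, 8.90-fold higher. It was 2.04-fold lower than the 482.6 CPM of Cdh15-Dlx3. Dnd1, an RNA-binding gene needed for germ cell survival, was 8.26-fold higher than in Tppp-Fgf11, at 72.4 against 8.76 CPM, with 127.4 in Cdh15-Dlx3. A UMI of Phlda2 was found in 63.7% of cells of the class, 79.3% of Cdh15-Dlx3 and 14.5% of Tppp-Fgf11, and in 19.4% of the cells with pregranulosa markers. In Tppp-Fgf11 the share was thus below that of the cells with pregranulosa markers, at median depths of 9530 and 8702 UMIs. The cells with pregranulosa markers also held germ cell RNA, with a Dazl UMI in 45.5% of them. Whether the Phlda2 share in Tppp-Fgf11 is background was not tested.

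Genes of DNA replication and of the step from G1 to S were as high as in Cdh15-Dlx3 or higher, and for several genes highest in the class. Of 48 genes measured, 3 were at least 1.5-fold higher than in Cdh15-Dlx3 and 0 lower (median 0.13), against 1.88% and 2.002% of all genes. By any amount, 39 of the 48 were above it. Over all genes that share was 20.7% of those higher at E12.5, 56.0% of those less than 2-fold apart and 91.6% of those higher at E16.5. Over Tppp-Fgf11, 9 of the 48 were at least 2-fold higher and 1 lower (median 0.56), against 12.1% and 5.11% of all genes. Tk1, thymidine kinase of the nucleotide salvage pathway (chromosome 11, 117815526 to 117826092), stood at 92.2 CPM (89.1 to 95.4) in Rec8-Msx1, 59.6 (56.9 to 62.3) in Cdh15-Dlx3 and 46.4 (44.2 to 48.7) in Tppp-Fgf11. It stood at 47.7 CPM at E12.5 and 11.6 at E16.5, so that the class was 1.55-fold above the next of the 5 groups. Uhrf1, which guides maintenance DNA methylation at replication, stood at 56.2, 35.7 and 32.0 CPM in the 3 classes, against 6.35 at E12.5 and 47.1 at E16.5. Mcm5, a subunit of the replicative helicase, stood at 230.9, 172.9 and 195.2 CPM, against 178.5 at E12.5 and 181.9 at E16.5. Cdc6, which licenses origins, stood at 24.3, 17.0 and 7.95 CPM, and was higher at E12.5 (26.8 CPM).

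Other helicase subunits did not separate the class from Cdh15-Dlx3. Mcm3 stood at 141.9 CPM in Rec8-Msx1, 140.6 in Cdh15-Dlx3 and 62.7 in Tppp-Fgf11, and Mcm7 at 105.6, 108.9 and 41.7 CPM. Tyms, of thymidylate synthesis, stood at 69.3, 80.8 and 19.6 CPM. Ccne2, which encodes cyclin E2, was the list member that was at least 2-fold lower than in Tppp-Fgf11, at 46.9 CPM against 126.0, with 31.6 in Cdh15-Dlx3. Per cell, UMIs of the replication list had a median of 6461 per 1000000 in Rec8-Msx1, 5856 in Cdh15-Dlx3, 5381 in Tppp-Fgf11, 6945 at E12.5 and 4465 at E16.5. The middle 50% of cells spanned 5506 to 7362 in Rec8-Msx1, 4972 to 6897 in Cdh15-Dlx3 and 4610 to 6228 in Tppp-Fgf11, so the ranges overlap widely.

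Promoters of the replication list often hold the letters bound by E2F factors, the regulators of genes for S phase entry. The letters TTTCGCGC or TTTGGCGC, on either strand, occurred in 12 of the 36 list members with a RefSeq promoter (33.3%), against 147 of 6222 measured genes (2.36%). A match describes the letters and shows no binding. The promoters of 2 genes highest in the class, Mcm5 and Uhrf1, and of 2 genes shared with Cdh15-Dlx3, Mcm3 and Mcm7, are shown because both patterns occur beside the same letters. Each runs 5′ to 3′ on the gene's strand from 250 bases before to 50 after a RefSeq start (GRCm38.p6), with the matches in capitals. They lie at chr8:75109259-75109558 (plus strand, Mcm5), chr17:56304063-56304362 (plus, Uhrf1), chr1:20820263-20820562 (minus, Mcm3) and chr5:138171834-138172133 (minus, Mcm7). Uhrf1 and Mcm7 each have a further RefSeq start whose promoter holds 0 matches, as do the promoters of Tk1 and Cdc6, and a gene was counted where any of its starts held a match. In Mcm5 the run in capitals holds 2 matches that overlap, 1 on each strand.
Mcm5: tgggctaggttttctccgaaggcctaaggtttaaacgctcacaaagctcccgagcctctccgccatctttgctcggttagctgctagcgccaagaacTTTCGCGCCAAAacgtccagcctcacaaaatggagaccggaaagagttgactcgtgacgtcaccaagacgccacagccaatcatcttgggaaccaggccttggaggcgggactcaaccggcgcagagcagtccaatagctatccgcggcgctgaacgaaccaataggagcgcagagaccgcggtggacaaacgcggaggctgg
Uhrf1: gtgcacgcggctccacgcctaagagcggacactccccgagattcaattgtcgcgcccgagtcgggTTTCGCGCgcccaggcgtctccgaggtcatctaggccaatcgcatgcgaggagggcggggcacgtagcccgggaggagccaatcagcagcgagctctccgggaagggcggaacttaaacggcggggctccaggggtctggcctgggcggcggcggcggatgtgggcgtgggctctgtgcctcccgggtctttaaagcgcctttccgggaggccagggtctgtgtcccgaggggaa
Mcm3: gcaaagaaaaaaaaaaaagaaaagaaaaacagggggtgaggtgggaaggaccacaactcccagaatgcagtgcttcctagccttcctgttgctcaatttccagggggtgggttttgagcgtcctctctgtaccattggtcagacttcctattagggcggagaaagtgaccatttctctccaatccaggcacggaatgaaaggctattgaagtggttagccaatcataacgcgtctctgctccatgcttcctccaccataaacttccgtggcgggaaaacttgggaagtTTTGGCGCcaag
Mcm7: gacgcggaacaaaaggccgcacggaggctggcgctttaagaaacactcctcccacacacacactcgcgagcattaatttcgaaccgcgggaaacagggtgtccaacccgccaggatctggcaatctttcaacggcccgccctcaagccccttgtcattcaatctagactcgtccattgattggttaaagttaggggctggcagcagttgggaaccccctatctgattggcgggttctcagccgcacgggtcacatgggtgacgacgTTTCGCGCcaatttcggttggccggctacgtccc

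G2 and mitosis genes were lower than in Cdh15-Dlx3. Of 27 measured, 9 were at least 1.5-fold lower and 0 higher (median -0.39), against 2.002% and 1.88% of all genes. Ccnb1, which encodes cyclin B1 of mitotic entry (chromosome 13, 100778650 to 100786570), stood at 49.1 CPM (46.9 to 51.4) in Rec8-Msx1, 127.2 (123.4 to 131.2) in Cdh15-Dlx3 and 11.8 (10.7 to 12.9) in Tppp-Fgf11. It was 2.59-fold lower than in Cdh15-Dlx3, the largest such ratio among genes of at least 50 CPM, and stood at 387.7 CPM at E12.5. Cks2, a cofactor of the mitotic kinase, stood at 272.5 CPM in the class, 480.2 in Cdh15-Dlx3 and 261.3 in Tppp-Fgf11. Over Tppp-Fgf11, 5 of 26 genes were at least 2-fold higher and 0 lower (median 0.18, and -0.03 with median-of-ratios scaling). Of all genes, 12.1% were at least 2-fold higher and 5.11% lower. Top2a, a topoisomerase, went the other way, at 298.0 CPM in Rec8-Msx1, 246.4 in Cdh15-Dlx3 and 403.7 in Tppp-Fgf11. Per cell, the list had a median of 3594 UMIs per 1000000 in Rec8-Msx1, 4373 in Cdh15-Dlx3, 3963 in Tppp-Fgf11, 6710 at E12.5 and 3496 at E16.5. Hmgb2, a chromatin protein gene on the list, made up much of the sum, at 1762 CPM in Rec8-Msx1, 1975 in Cdh15-Dlx3 and 1945 in Tppp-Fgf11, where the summed list stood at 4037, 5039 and 4117 CPM. In the highest 10% of cells the list exceeded 6295 per 1000000 in Rec8-Msx1, 8118 in Cdh15-Dlx3 and 5326 in Tppp-Fgf11, so the order of the medians did not hold there.

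**Figure D4:**
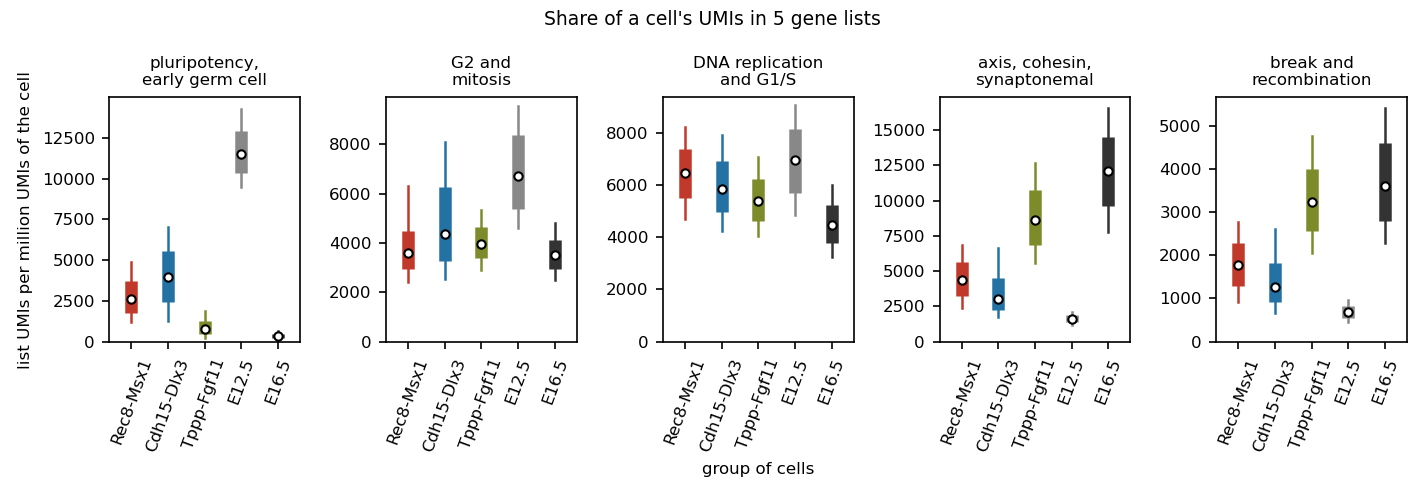
UMIs of 5 gene lists per 1000000 UMIs of a cell (y axis) in the 3 E14.5 classes and the E12.5 and E16.5 libraries (x axis); circles are medians, thick bars the middle 50% and thin lines the middle 80% of cells. Rec8-Msx1 lies between the other classes in the pluripotency, axis and recombination lists, with a replication median of 6461 and a G2 and mitosis median of 3594.

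Cyclins and their inhibitors differed mainly from Tppp-Fgf11, with 8 of 19 at least 2-fold higher and 2 lower (median 0.78). Over Cdh15-Dlx3, 2 of 17 were at least 1.5-fold lower and 0 higher (median 0.10). Of all genes, 12.1% were at least 2-fold higher than in Tppp-Fgf11 and 5.11% lower. At 1.5-fold, 2.002% were lower than in Cdh15-Dlx3 and 1.88% higher. Cdkn1c, an imprinted inhibitor of cyclin-dependent kinases, stood at 215.8 CPM in Rec8-Msx1, 200.6 in Cdh15-Dlx3 and 79.0 in Tppp-Fgf11. Cdkn1a, the p21 inhibitor that answers p53, stood at 54.8, 72.6 and 7.75 CPM, and was 7.07-fold higher than in Tppp-Fgf11. The apoptosis and checkpoint list had 4 of 13 genes at least 2-fold higher than in Tppp-Fgf11 and 1 lower (median 0.39), and 1 of 14 at least 1.5-fold lower than in Cdh15-Dlx3 with 0 higher (median -0.15). Bbc3, the p53 target PUMA, stood at 12.6, 15.0 and 1.35 CPM, and Trp53 at 27.7, 55.4 and 5.79 CPM in the same order. Atr, a kinase of the replication checkpoint, was lower than in Tppp-Fgf11, at 99.5 against 231.6 CPM, with 78.5 in Cdh15-Dlx3.

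BMP and retinoic acid response genes were as high as in Cdh15-Dlx3 and well above Tppp-Fgf11. Of 22 measured, 14 were at least 2-fold higher than in Tppp-Fgf11 and 2 lower (median 1.22). Over Cdh15-Dlx3, 1 of 21 was at least 1.5-fold higher and 1 lower (median -0.05). The shares of all genes were 12.1% and 5.11% over Tppp-Fgf11, and 1.88% and 2.002% over Cdh15-Dlx3. Id3, a BMP target, stood at 798.6 CPM (789.5 to 807.8) in Rec8-Msx1, 581.4 (573.1 to 589.9) in Cdh15-Dlx3 and 355.1 (348.9 to 361.3) in Tppp-Fgf11. It was the highest of the 5 groups there, with 595.0 CPM at E12.5 and 222.1 at E16.5. Msx2, a homeobox gene related to Msx1, stood at 51.1 CPM in Rec8-Msx1, 53.7 in Cdh15-Dlx3 and 10.95 in Tppp-Fgf11. Cdx2, a homeobox gene of posterior and trophectoderm cells, was 15.1-fold higher than in Tppp-Fgf11, at 30.6 against 2.02 CPM, with 49.97 in Cdh15-Dlx3. Rhox5, a homeobox gene of the X chromosome, stood at 518.7, 614.6 and 172.6 CPM. Rhox13 was the list member that was higher than in Cdh15-Dlx3 and lower than in Tppp-Fgf11, at 53.7, 31.3 and 130.5 CPM, and Rhox genes are a family of similar copies whose counts are uncertain.

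WNT and beta-catenin genes had 5 of 15 members at least 2-fold higher than in Tppp-Fgf11 and 0 lower, with a median of 0.16 that was -0.04 with median-of-ratios scaling. None of the 15 was at least 1.5-fold apart from Cdh15-Dlx3 (median 0.02). Of all genes, 12.1% were at least 2-fold higher than in Tppp-Fgf11 and 5.11% lower. At 1.5-fold, 1.88% were higher than in Cdh15-Dlx3 and 2.002% lower. Ccnd2, of cyclin D2, stood at 17.4 CPM in Rec8-Msx1, 14.8 in Cdh15-Dlx3 and 2.47 in Tppp-Fgf11, and Ctnnb1, of beta-catenin, at 156.9, 153.9 and 137.8 CPM. The DNA methylation and TET list had 2 of 10 genes at least 1.5-fold higher than in Cdh15-Dlx3 and 1 lower (median -0.01), and 2 at least 2-fold higher than in Tppp-Fgf11 with 0 lower (median 0.46). Tet1, a demethylation enzyme needed to activate meiotic genes in germ cells, was lower than in Cdh15-Dlx3, at 10.4 CPM against 20.002, with 4.52 in Tppp-Fgf11. Among Polycomb genes of PRC1.6 and PRC2, 0 of 21 were at least 1.5-fold apart from Cdh15-Dlx3 (median 0.03), and 1 was at least 2-fold higher than in Tppp-Fgf11 with 0 lower (median -0.02). That gene was Cbx2, a chromobox subunit, at 18.8 CPM in Rec8-Msx1, 21.9 in Cdh15-Dlx3 and 6.57 in Tppp-Fgf11. The counts of the DNA methylation and Polycomb lists over Tppp-Fgf11 are near the shares of all genes and show no result about their members.

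Glycolysis genes sided with Cdh15-Dlx3, with 9 of 15 at least 2-fold higher than in Tppp-Fgf11 and 0 lower (median 1.28). Over Cdh15-Dlx3, 2 of 15 were at least 1.5-fold lower and 0 higher (median -0.18). Of all genes, 12.1% were at least 2-fold higher than in Tppp-Fgf11 and 5.11% lower. At 1.5-fold, 2.002% were lower than in Cdh15-Dlx3 and 1.88% higher. Aldoa, a glycolytic aldolase, stood at 209.2 CPM in Rec8-Msx1, 258.5 in Cdh15-Dlx3 and 65.6 in Tppp-Fgf11, and Gapdh at 617.2, 697.6 and 357.0 CPM. Of 38 oxidative phosphorylation genes, 2 were at least 1.5-fold lower than in Cdh15-Dlx3 and 0 higher (median 0.05). Over Tppp-Fgf11, 2 of the 38 were at least 2-fold higher and 1 lower (median -0.12), against 12.1% and 5.11% of all genes. The 2 that were lower than in Cdh15-Dlx3 were subunits of cytochrome c oxidase, Cox7b (134.2 CPM in Rec8-Msx1, 334.4 in Cdh15-Dlx3 and 41.2 in Tppp-Fgf11) and Cox8a (210.0, 462.3 and 80.4 CPM). Nucleolar ribosome biogenesis genes had 0 of 25 members at least 1.5-fold apart from Cdh15-Dlx3 (median -0.18). Over Tppp-Fgf11, 4 of the 25 were at least 2-fold higher and 0 lower (median 0.22), against 12.1% and 5.11% of all genes. Ubtf, a factor of ribosomal RNA transcription, stood at 100.1 CPM in the class against 38.9 in Tppp-Fgf11.

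Immediate-early and heat shock genes had 8 of 16 members at least 2-fold higher than in Tppp-Fgf11 and 1 lower (median 1.43), and 1 at least 1.5-fold lower than in Cdh15-Dlx3 with 0 higher (median -0.31). The shares of all genes were 12.1% and 5.11% over Tppp-Fgf11, and 2.002% and 1.88% over Cdh15-Dlx3. Without the cells with pregranulosa markers the median over Tppp-Fgf11 was 0.82. Jund, an AP-1 gene, stood at 132.9 CPM in Rec8-Msx1, 163.8 in Cdh15-Dlx3 and 27.5 in Tppp-Fgf11. The same cells carried the ratios of some single genes. Without them, 891 of the 933 genes at least 2-fold higher than in Tppp-Fgf11 remained so, and 42 did not. Their log2 ratios were then 0.51 in place of 2.46 for Tmsb4x, an actin-binding gene, 0.50 in place of 2.95 for the pregranulosa gene Fst, and 0.19 in place of 3.09 for Xist, the RNA of X inactivation. For Phlda2 and Dnd1 the ratios were 3.17 and 3.06, against 3.15 and 3.05 with those cells.

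**Figure D5:**
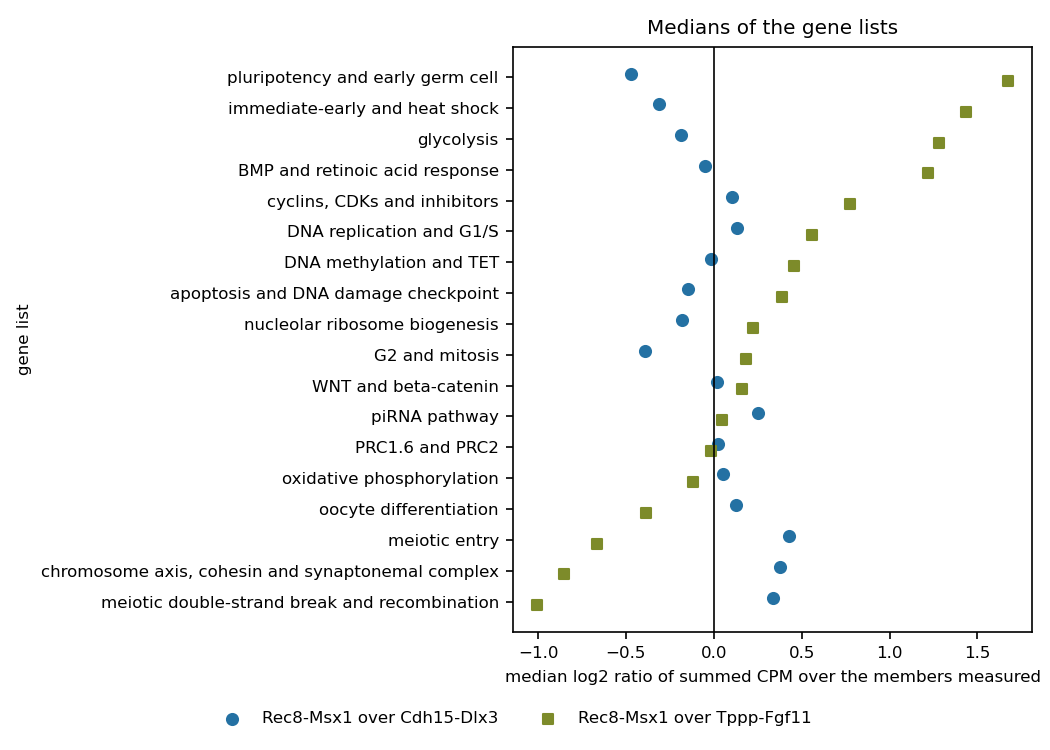
Median log2 ratio of summed CPM (x axis) over the measured members of 18 gene lists (y axis), for Rec8-Msx1 over Cdh15-Dlx3 (circles) and over Tppp-Fgf11 (squares). The 3 lists at the bottom, meiotic entry, axis and recombination, have medians above 0 over Cdh15-Dlx3 and below 0 over Tppp-Fgf11, and the pluripotency list at the top has -0.47 and 1.68.

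The genes with the largest ratios over Cdh15-Dlx3 were led by X-linked lymphocyte-regulated genes. Among genes of at least 50 CPM, Xlr5a (chromosome X, 73107635 to 73292976) stood at 58.2 CPM in Rec8-Msx1, 31.4 in Cdh15-Dlx3 and 65.6 in Tppp-Fgf11. Xlr3c stood at 71.6, 40.4 and 53.6 CPM, and Xlr4b at 147.1, 85.1 and 315.1 CPM. Members of this family are near-identical copies between which reads can be split, so their single levels are uncertain. The others of the 12 largest were Xlr4a, Xlr3b, Syngr4, Dmrtc2, Rhox13, Haus8, Taf7l, Ddb2 and Eif1ad. Ddb2, a DNA damage recognition gene, stood at 60.5 CPM in Rec8-Msx1, 36.8 in Cdh15-Dlx3 and 132.9 in Tppp-Fgf11. Of the 12 genes of this group, Xlr3c alone was higher in Rec8-Msx1 than in Tppp-Fgf11 by over 0.1 on the log2 scale (0.42). Among the 12 lowest relative to Cdh15-Dlx3 were, beside those given, Cep89, Tdh, Cd24a, Slc9a3r1, Ckb and Mdh2, all also higher than in Tppp-Fgf11. Ckb, a creatine kinase, stood at 70.7 CPM in Rec8-Msx1, 128.1 in Cdh15-Dlx3 and 13.7 in Tppp-Fgf11.

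Over Tppp-Fgf11 the 12 largest ratios upward included, beside those given, Pdpn, Maged2, Bmyc and Zfp462. Bmyc, a relative of Myc, stood at 50.3 CPM in Rec8-Msx1, 51.6 in Cdh15-Dlx3 and 10.95 in Tppp-Fgf11, and at 10.9 at E12.5 and 7.46 at E16.5. Maged2 stood at 63.1, 61.0 and 12.9 CPM in the 3 classes, and at 20.7 and 18.4 CPM at E12.5 and E16.5. Both were thus at least 2-fold higher in Rec8-Msx1 and in Cdh15-Dlx3 than at either other stage. The 12 largest downward were Rad51ap2, Meiob, Prdm9, Inca1, BC051142, Fbxo47, H2-Ab1, Msh5, H2-D1, BC049762, Ankrd31 and Sycp2. H2-D1, an MHC class I gene whose reads can be shared with its relatives, stood at 112.2 CPM in Rec8-Msx1, 72.1 in Cdh15-Dlx3 and 440.3 in Tppp-Fgf11, against 0.61 at E12.5.

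Few genes outside the rule peaked in the class. Over 6835 genes of at least 20 CPM in any of the 5 groups, Rec8-Msx1 was the highest for 720 (10.5%), and at least 1.5-fold above the next group for 9. Cdh15-Dlx3 was at least 1.5-fold above the next for 4 genes, Tppp-Fgf11 for 153, E12.5 for 974 and E16.5 for 654. The 10 genes with the largest peaks were Snhg11, Slc2a8, Cib2, Xlr3a, Tk1, Zfp235, Mgl2, Tmem205, C8g and Mboat7, between 1.49-fold and 1.67-fold above the next group. Snhg11, a host gene of small nucleolar RNAs, stood at 29.4 CPM in Rec8-Msx1, 17.6 in Cdh15-Dlx3, 9.69 in Tppp-Fgf11, 4.30 at E12.5 and 5.74 at E16.5. Slc2a8, a glucose transporter gene, stood at 23.4, 14.6, 12.8, 8.91 and 4.28 CPM in the same order. This likeness is over 5 groups from 3 libraries.

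The class varied within itself along the same order. Its second-highest set was Cdh15-Dlx3 in 2048 cells and Tppp-Fgf11 in 1002. Without cells with pregranulosa markers, 990 cells nearer Tppp-Fgf11 were set against 1977 nearer Cdh15-Dlx3, a division that the scoring genes made. Of 7585 genes, 30 were at least 2-fold higher (0.396%) and 58 lower (0.765%), with a median log2 ratio of 0.02 over all genes. Stra8 stood at 2015 CPM in the cells nearer Tppp-Fgf11 and 1672 in those nearer Cdh15-Dlx3. Both levels were above those of the other 2 classes as wholes. Prdm9 stood at 46.7 CPM in the cells nearer Tppp-Fgf11 and 19.8 in those nearer Cdh15-Dlx3, Figla at 117.1 and 55.6, and Phlda2 at 104.1 and 302.3 CPM. The medians were 0.50 for the axis list, 0.45 for the recombination list, 0.46 for meiotic entry, -0.69 for pluripotency, -0.47 for glycolysis and 0.04 for replication. Of 48 replication genes, 31 were higher by any amount in the cells nearer Tppp-Fgf11 and 17 lower. In the cells nearer Tppp-Fgf11 and those nearer Cdh15-Dlx3, Mcm5 stood at 248.9 and 227.2 CPM, Tk1 at 109.4 and 86.6, Ccne2 at 67.1 and 38.7, and Tyms at 55.1 and 76.7 CPM.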

How the data were processed

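Droplet single-cell RNA was measured in 3 libraries of Oct4-EGFP+ germ cells, 1 per stage. Tools named in the submitters' processing notes are FastQC and Cell Ranger 2.0.0, with build mm10, without settings or filters. For 14133 genes in 19144 cells the authors deposited the natural log of 1 plus the UMIs per 10000 of the cell. Undoing the natural log gave whole UMIs for 100.0% of 68606039 non-zero values within 0.01. Sums of these UMIs per class were used, as CPM with exact Poisson 95% intervals, and shares of cells have exact binomial intervals.

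Members, comparison classes and gene lists were chosen with earlier results of these data known. The z-scores used the deposited natural log values. A gene was called at 2-fold or more with at least 10 CPM in the higher class, the 18 scoring genes were left out, and a sum of 0 was set to 3 counts. No filter on cells was added, and no doublet caller was run, so doublets may remain. An alternative left out the 5% of E14.5 cells with most UMIs. A cell had pregranulosa markers if it held at least 5 of them. Thinning drew 5000 UMIs per cell, which left out 1 cell of the class, 1 of Cdh15-Dlx3 and 9 of Tppp-Fgf11.

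The named genes were the 12 of largest ratio per direction and comparison among genes of at least 50 CPM, without mitochondrial, ribosomal protein, haemoglobin and unnamed genes. Added were, per list, the 3 of highest CPM in the class and the 1 of largest ratio, 10 genes fixed by name and 10 that peak in the class. Other genes in the text were chosen after their values were seen. The lists were those the report gives, with germ cell markers (3 of 18 at least 1.5-fold higher than in Cdh15-Dlx3 and 3 lower, median 0.21, and 7 at least 2-fold higher than in Tppp-Fgf11 and 4 lower, median 0.10). Pregranulosa markers had 0 of 7 at least 1.5-fold apart from Cdh15-Dlx3 (median 0.01) and 6 of 6 at least 2-fold higher than in Tppp-Fgf11 (median 2.63, and 1.48 without the cells with those markers). Endothelial markers had 1 of 3 at least 1.5-fold lower than in Cdh15-Dlx3 (median -0.04) and 1 at least 2-fold higher than in Tppp-Fgf11 (median 0.99). The shares of all genes beside these marker counts were 1.88% higher and 2.002% lower at 1.5-fold over Cdh15-Dlx3. At 2-fold over Tppp-Fgf11 they were 12.1% higher and 5.11% lower. Gene positions are from GENCODE vM21 (GRCm38) and promoters from RefSeq (GRCm38.p6), for 10543 of the 14133 symbols. The sums were tested on counts simulated from the profile of the class, with no spread between cells and no cut by a score. That test therefore does not cover the choice of cells. Python 3.11.15, numpy 2.4.6, scipy 1.17.1 and pandas 2.3.3 were used.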

Additional observations from a re-analysis of the deposited data

How the results depend on the processing

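The Rec8-Msx1 class of 3050 cells held 2985 without cells with pregranulosa markers, 2109 with a margin of 0.25 and 3102 after thinning. Each change was by less than 1.5 times. Of the log2 ratios of named genes, 174 were marked as moved at that margin, 99 as the same and 1 as reversed. With median-of-ratios scaling 138 were marked as moved and 136 as the same, and in thinned cells 107 and 167. Moves of over 1.5-fold numbered 9. The counting intervals of single genes do not cover these choices of processing. The 2 genes at least 2-fold higher than in Cdh15-Dlx3 were 1 with median-of-ratios scaling, 1 with the mean of CPM over cells, 1 without the 5% of cells with most UMIs, 0 in thinned cells and 0 at a minimum of 50 CPM. They were 36 among cells at least 0.25 above their next set, 143 at 1.5-fold and 128 with no minimum CPM. The 25 lower genes were 63, 152 and 346 in those same 3 settings and 7 at 50 CPM. Over Tppp-Fgf11, the 933 higher genes were 173 at 50 CPM, 1798 at 1.5-fold and 3226 with no minimum. The 395 lower genes were 161, 1275 and 1001 in those settings and 757 with median-of-ratios scaling. The median over Tppp-Fgf11 of genes higher at E12.5, 0.88, was 0.67 with median-of-ratios scaling and 0.99 at the margin of 0.25, and that of genes higher at E16.5, -0.54, was -0.75 with median-of-ratios scaling. Over Tppp-Fgf11 the direction turned with that scaling for the medians of G2 and mitosis (-0.0262), WNT (-0.0438), piRNA (-0.16, against 0.05) and germ cell marker genes (-0.11, against 0.10). List medians within 0.05 of 0 also changed sign under some settings. The direction turned as well for the haemoglobin gene Hba-a1 (-2.22, against 0.21 at the margin of 0.25), and the cause was not tested. No paired analysis was possible because each stage is 1 library and no result comes from a test. For the same reason no replicate could be left out.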
